A study of Mus musculus with 3 samples.

Results

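The PRAME-like gene cluster is a stretch of 1.6 Mb near the end of mouse chromosome 4 (mm9 chr4:142700001-144300000). It was taken by position alone, as all of its 1 kb windows: 1600 windows, beside 154030 windows in the rest of chromosome 4 and 2725730 on all nuclear sequences. The samples are 2-cell mouse embryos of embryonic day 1.5, in 1 group of 3 litters numbered 1 to 3, and RNA was measured by sequencing. Each library pooled the embryos of a litter, and its small amount of RNA was first amplified with SPIA, which makes many cDNA copies of each RNA at constant temperature. All mothers were homozygous for a floxed LSD1 allele (LSD1 FL/FL) on a mixed background and lacked ZP3::Cre, a transgene whose promoter drives Cre in growing oocytes. They were mated with wild-type CB6 males, and the labels also name C57/Bl6J mice as sires. No group differed in genotype or treatment, so the litters are replicates and no contrast between conditions exists.

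Genes of the PRAME family encode leucine-rich repeat proteins. The human founder is known as an antigen of melanoma and other tumours, and the mouse genome holds large tandem arrays of related genes. Many members are transcribed mainly in germ cells and early embryos, and the Oog genes of the same family are known as oocyte-specific genes. RNA stored in the oocyte is still present at the 2-cell stage while the embryo's own genome becomes active, and bulk RNA does not tell the 2 sources apart.

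A RefSeq gene table of the later build GRCm38.p6 lists 24 genes of the family on chromosome 4 from Pramel1 to Pramel13. Their order is Pramel1, Pramel12, Oog4, Pramel20 to Pramel27, Pramel11, Pramel16, Pramel28, Pramel14, Pramel4, Oog3, Oog2, Pramel29, Pramel5, Pramel30, Pramel31, Pramel15 and Pramel13. The deposited files use mm9, and no coordinates were carried between builds. Blocks of alignments are therefore given by their mm9 positions, are not assigned to genes and carry no exon or intron label. The stretch was taken by position, and its blocks were not checked against sequence. Some of them may belong to genes outside the PRAME and Oog family, and the level of the cluster is that of all its sequence. An alignment here is 72 bases long, and any 72-base word that several genes share can be aligned to each of them. Coding sequences of all 24 genes were found in GENCODE M21 transcripts (GRCm38), 1368 to 1512 bases long with a median of 1446. The RefSeq table labels Pramel28 a pseudogene and the others protein-coding. Of their 33141 words of 72 bases, 22.1% occurred in more than 1 of the 24 genes. Such words were present in 17 genes and absent from 7: Pramel1, Pramel12, Oog4, Pramel23, Oog3, Pramel15 and Pramel13.

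The closest pair was Pramel14 and Pramel30, which shared 905 words and an identical run of 483 bases, followed by Pramel26 and Oog2 with 542 words and Pramel22 and Pramel27 with 531. The words held by the most genes were 14 words common to the same 4 genes. The first of them is shown because an alignment to it cannot name its gene. It opens the coding sequence of Pramel11, Pramel24 and Pramel5 and lies at base 58 of that of Pramel21. Capitals mark bases of other members' closest windows that differ from the Pramel11 word, and the last line shows the closest window of an Oog gene.
Pramel11: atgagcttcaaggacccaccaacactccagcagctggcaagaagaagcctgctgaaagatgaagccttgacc
Pramel4: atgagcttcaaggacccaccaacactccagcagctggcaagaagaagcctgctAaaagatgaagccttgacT
Pramel16: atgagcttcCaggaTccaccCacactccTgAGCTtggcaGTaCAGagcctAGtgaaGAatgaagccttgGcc
Oog4: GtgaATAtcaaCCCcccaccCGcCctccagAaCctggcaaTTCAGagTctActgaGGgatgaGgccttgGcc
The Pramel4 window differed at 2 bases, the Pramel16 window at 18 and the Oog4 window at 23. Words were also shared with 2 family genes of chromosome 12: Pramel29 shared 194 with Oog1 and 170 with Pramel51, and Pramel25 shared 176 with Oog1 and 118 with Pramel51. All 4 of these genes hold the next word, at base 298 of the coding sequence of Pramel25, Pramel29 and Oog1 and base 373 of that of Pramel51.
Oog1: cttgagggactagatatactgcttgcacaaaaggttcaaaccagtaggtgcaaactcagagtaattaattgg

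Alignments in the cluster numbered 75730, 99829 and 100829 in litters 1 to 3, out of 34014013, 32431630 and 40474940 alignments on nuclear chromosomes. Its level was 1.39 RPKM in litter 1, 1.92 in litter 2 and 1.56 in litter 3, where RPKM divides the alignments by the kb of sequence and by each 1000000 alignments on nuclear chromosomes. The mean was 1.62 ± 0.272 RPKM (SD, n = 3), against 0.352 ± 0.00680 in the rest of chromosome 4. The cluster thus stood 4.03, 5.37 and 4.40 times above the rest of its chromosome in litters 1, 2 and 3, with no overlap between the cluster's and the chromosome's values. On the log2 scale the ratio averaged 2.19 ± 0.21, with all 3 litters positive. A two-sided permutation test that flipped the sign of each litter's ratio, exact over all flips, gave p = 0.25, which is the smallest value that 3 litters allow. The cluster held 4.56% ± 0.651 of the alignments of chromosome 4. Of 97 stretches of the same size on the chromosome, it ranked 4th in all 3 litters, and the 2 stretches that follow it towards the chromosome's end ranked higher by their means.

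**Figure D1:**
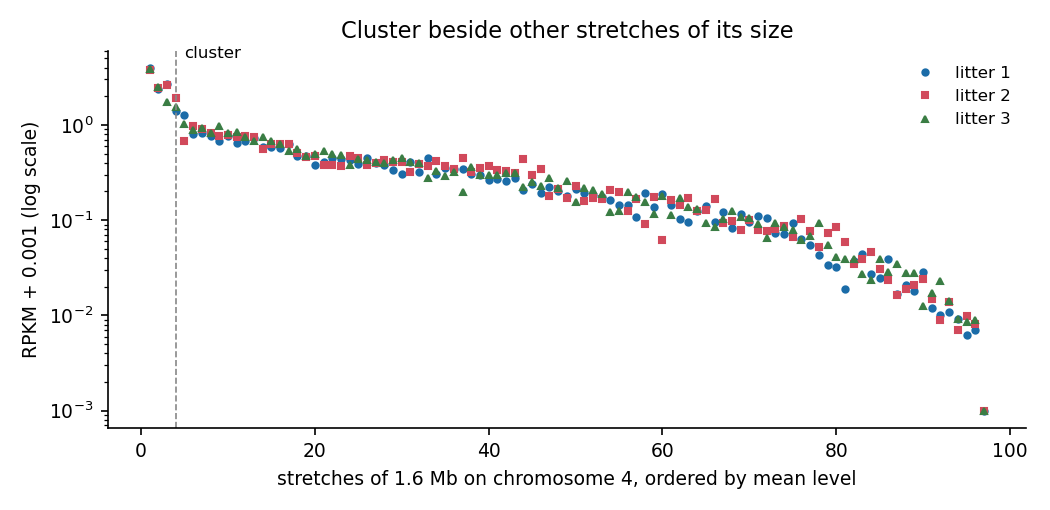
Level (RPKM plus 0.001, log scale) of the 97 stretches of 1.6 Mb on chromosome 4, ordered by their mean, with 1 symbol per litter. The cluster, at the dashed line, is the 4th of 97, at 1.39 to 1.92 RPKM.

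These levels count an alignment at every place where it was reported. Positions linked to another place by the search for rows of equal counts, described below, were then taken out. This was done in the cluster alone, which can only lower its ratio to the unchanged rest of the chromosome. The search passes over positions with few alignments, so part of the repeated positions stayed in. With start positions linked within the cluster counted in 1 place only, the ratio to the rest of chromosome 4 was 3.37, 4.69 and 3.64 in litters 1 to 3, a mean of 3.90 ± 0.700. With every position linked to another place in the cluster or the genome left out, the ratio was 2.50, 3.68 and 2.58, a mean of 2.92 ± 0.658. With the 10 highest blocks left out of the cluster alone, the mean ratio was 1.71 ± 0.546. Distinct start positions, which count all alignments at 1 start only once, gave 4.11 ± 0.489. Copies of 1 RNA made by SPIA and sheared at different places still give different starts. Each of these means was above 1.

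Few windows carried most of the alignments. In the cluster, 91 of 1600 windows (5.69%) reached 1 RPKM in all 3 litters, against a background of 1.34% of windows in the rest of chromosome 4. These 91 windows held 86.6% ± 7.30 of the cluster's alignments. Taken singly, 139 windows reached 1 RPKM in litter 1, 199 in litter 2 and 129 in litter 3, so litter 2 had the most. In the rest of the chromosome litter 2 also had the largest share, at 3.64% against 2.96% and 2.81%. Alignments covered 7.0% of the cluster's bases in litter 1, 10.6% in litter 2 and 6.52% in litter 3. No alignment of any litter started in 841 windows (52.6%), compared with 77.6% of windows in the rest of the chromosome. A litter with 0 alignments in a window could still hold up to 3 by counting error, which is 0.0882, 0.0925 and 0.0741 RPKM in a 1 kb window of litters 1 to 3.

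Along the cluster, the 100 kb with the highest level began 1000 kb from its start, at 6.29, 8.11 and 6.13 RPKM in litters 1 to 3. The stretch at 600 kb followed with a mean of 3.42 ± 0.531, and the stretch at 900 kb with 3.33 ± 0.564; their litters overlapped. The last 300 kb was low: means were 0.125 ± 0.0740 RPKM at 1300 kb, 0.316 ± 0.239 at 1400 kb and 0.00164 ± 0.00159 at 1500 kb. The longest run of windows without any alignment was 34 kb (chr4:144179001-144213000), and the next closed the cluster over 30 kb (chr4:144270001-144300000).

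**Figure D2:**
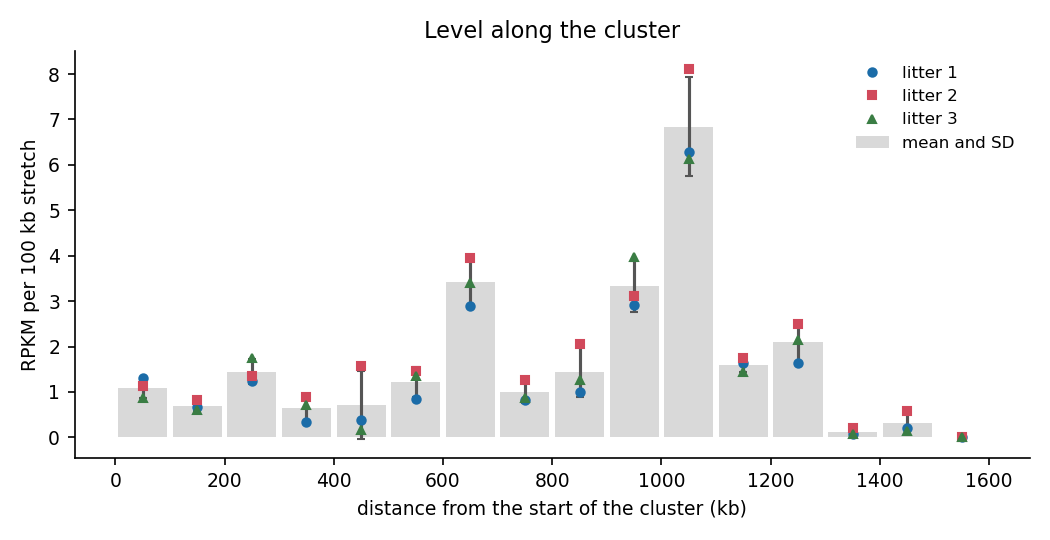
RPKM in 100 kb stretches against the distance from the start of the cluster (kb); bars are means of 3 litters, error bars the SD, and symbols the litters. The stretch at 1000 kb stands highest, at 6.13 to 8.11 RPKM, and the stretch at 1500 kb is close to 0.

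Joining covered bases with gaps of up to 200 bases gave 683 runs, of which 68 held at least 20 alignments in every litter. These 68 covered blocks, numbered here by position, spanned 99188 bases, 6.20% of the cluster. Their length ran from 82 to 5328 bases with a median of 1181. They held 92.9% ± 2.38 of the cluster's alignments, and the 10 highest of them held 63.5% ± 6.0. Mean block levels ran from 1.81 to 124 RPKM with a median of 12.6. Of the 68 blocks, 35 were highest in litter 2, 23 in litter 3 and 10 in litter 1. This tally counts blocks that share alignments separately, and no such tally was made for the rest of chromosome 4. There, too, litter 2 had the highest level, with 0.345, 0.358 and 0.354 RPKM in litters 1 to 3.

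Block 48 (chr4:143747456-143750424, 2969 bases) took the most alignments. It held 10011 in litter 1, 12803 in litter 2 and 11029 in litter 3, which is 294, 395 and 272 per 1000000 nuclear alignments (RPM), a mean of 321 ± 65.2. Litter 2 was highest, and the highest litter was 1.45 times the lowest. Blocks 31 (chr4:143383426-143385834) and 51 (chr4:143796501-143798736) followed. Block 31 had 232, 334 and 281 RPM in litters 1 to 3, and block 51 had 228, 333 and 272. The values of these 2 blocks differed by less than their spread between litters. They are partly repeated: in the search for rows of equal counts described below, they matched in opposite orientation at 320 of 751 usable positions. Per kb, block 51 was highest of all at 124 ± 23.6 RPKM, beside 117 ± 21.2 for block 31 and 108 ± 22.0 for block 48, which also overlap.

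Block 45 (chr4:143655632-143659817) had 156, 141 and 185 RPM and block 47 (chr4:143696408-143700593) had 155, 140 and 181, both 4186 bases long and both highest in litter 3. Block 7 (chr4:142979252-142980710) had 120, 88.6 and 174 RPM in litters 1 to 3 and 87.3 ± 29.5 RPKM, and was the most variable of the 10 by its SD of 0.49 in log2 RPKM. Block 54 (chr4:143859950-143863933) had 135, 94.9 and 117 RPM. Its order of litters was unlike that of block 48: litter 2 was lowest here.

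Block 2 (chr4:142721221-142726548), the longest, had 63.9, 76.2 and 55.2 RPM and only 12.2 ± 1.98 RPKM. It had no position linked to another place. Block 57 (chr4:143922356-143924671) had 62.0, 70.8 and 62.2 RPM, and block 40 (chr4:143579719-143582042) had 58.4, 68.8 and 49.9, so their litters overlapped. The SD of log2 RPKM was 0.11 to 0.49 over the 10 highest blocks, against a median of 0.59 over all 68. These SDs include counting variance and are not matched for depth, and several of the 10 blocks share alignments.

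The 5 most variable blocks, among 61 with a mean of at least 100 alignments, were all highest in litter 2 and lowest in litter 3. Block 8 (chr4:142989215-142990047) held 80, 1009 and 21 alignments in litters 1 to 3, or 2.35, 31.1 and 0.519 RPM. Those alignments began at 70, 385 and 20 distinct positions, so the difference did not lie in a few positions only. Its SD of log2 RPKM was 2.89, and no position of it was linked to another place. The other 4 were blocks 58 (chr4:143952301-143954331), 38 (chr4:143538083-143540113), 39 (chr4:143554032-143556043) and 18 (chr4:143161675-143163697). Block 58 had 10.8, 41.7 and 1.28 RPM, block 38 had 10.2, 50.7 and 1.98, block 39 had 7.26, 29.9 and 1.14, and block 18 had 6.91, 34.5 and 1.48. These 4 share alignments with one another, so they are not independent. Each litter is 1 library, and none of these differences could be tested; litter 2 also had the highest level over the whole cluster.

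**Figure D3:**
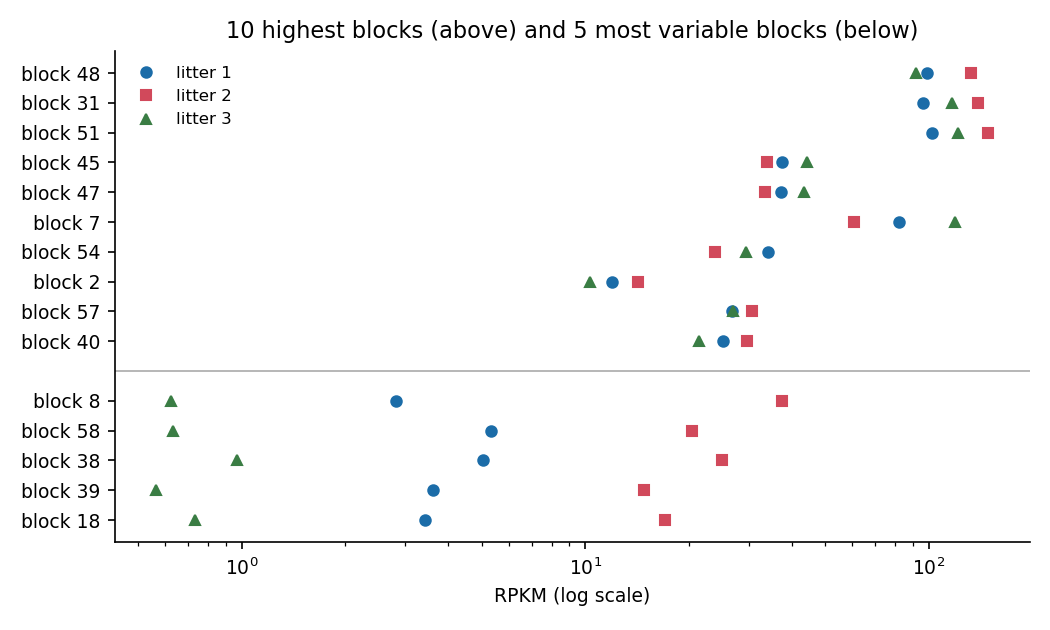
RPKM (log scale) of the 10 highest blocks, above the line, and the 5 most variable blocks, below it, with 1 symbol per litter. Litters lie close together in the upper blocks, while below the line litter 2 is highest and litter 3 lowest in each of the 5.

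At matched depth the litters differed about as much inside the cluster as outside it. Windows with a mean of 1000 alignments or more had a median coefficient of variation of 23.8% in the cluster (24 windows) and 24.8% in the rest of chromosome 4 (309 windows), after counting variance was taken off. From 300 to 1000 alignments the values were 43.0% (44 windows) and 48.6% (748 windows), and from 100 to 300 alignments 90.3% (48 windows) and 86.4% (1643 windows). Over all 116 windows of the cluster with a mean of at least 100, the median was 45.7%, against 65.6% over 2700 such windows of the rest of the chromosome, of which a larger share had few alignments. Litters 1 and 2 differed by more than 2 fold in 55 of these 116 windows (47.4%), against 50.9% of such windows in the rest of the chromosome. Litters 1 and 3 differed in 53 (45.7%), against 53.1%. Litters 2 and 3 differed in 46 (39.7%), against 53.1%. Of the 55 windows that differed between litters 1 and 2, 45 were higher in litter 2, and of the 46 between litters 2 and 3, 31 were. The direction was not counted in the rest of the chromosome, so it cannot be called particular to the cluster. Pearson's r of log2 RPKM over the 1600 windows was 0.79 between litters 1 and 2, 0.84 between 1 and 3 and 0.77 between 2 and 3, and 0.70, 0.71 and 0.69 over the rest of chromosome 4. Copied windows hold the same alignments, so these r values only describe the libraries.

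How often start counts at single positions recurred, in the cluster and elsewhere on the chromosome, depended on the minimum count. At 108 bases of the cluster each litter had 20 or more alignment starts, and for 78 of them (72.2%, 95% Wilson interval 63.1% to 79.8%) the same 3 counts occurred at another position of the genome, 12 of them within the cluster. In the rest of chromosome 4 the share was 66.3% of 3148 positions. The interval treats positions as independent, though some are neighbours or copies, so it does not test the cluster against the rest. At a minimum of 50 alignments, 0 of 3 positions recurred, which allows a share of up to 56.1% by the Wilson interval. In the rest the share was 23.2% of 689. At a minimum of 10, 93.8% of 742 positions of the cluster recurred, against 89.0% of 12094 in the rest. Counts at single positions also recur by coincidence when they are low. Rows of at least 10 such positions at a constant distance were found in no part of the cluster at a minimum of 20 per litter. With only 12 positions recurring within the cluster at that minimum, such rows could hardly form.

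A search that used lower counts, chosen after seeing the data, found rows of equal counts. It took positions with at least 5 alignments over the 3 litters, and kept rows of at least 10 positions that had equal counts in every litter at a constant distance (same orientation) or constant sum of positions (opposite orientation). Steps were at most 500 bases and at least 25% of the usable positions in the row were equal. There were 72 such rows, which joined 49 pairs of blocks, 24 in the same and 25 in the opposite orientation. They tied 32 of the 68 blocks into 8 sets. Linked positions within the cluster carried 27.3% ± 4.26 of its alignments, and positions linked within it or elsewhere in the genome carried 36.9% ± 5.03. Repeated positions with fewer alignments than the minimum were not linked and are missing from these shares. Of the 68 blocks, 30 had no linked position at all.

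**Figure D4:**
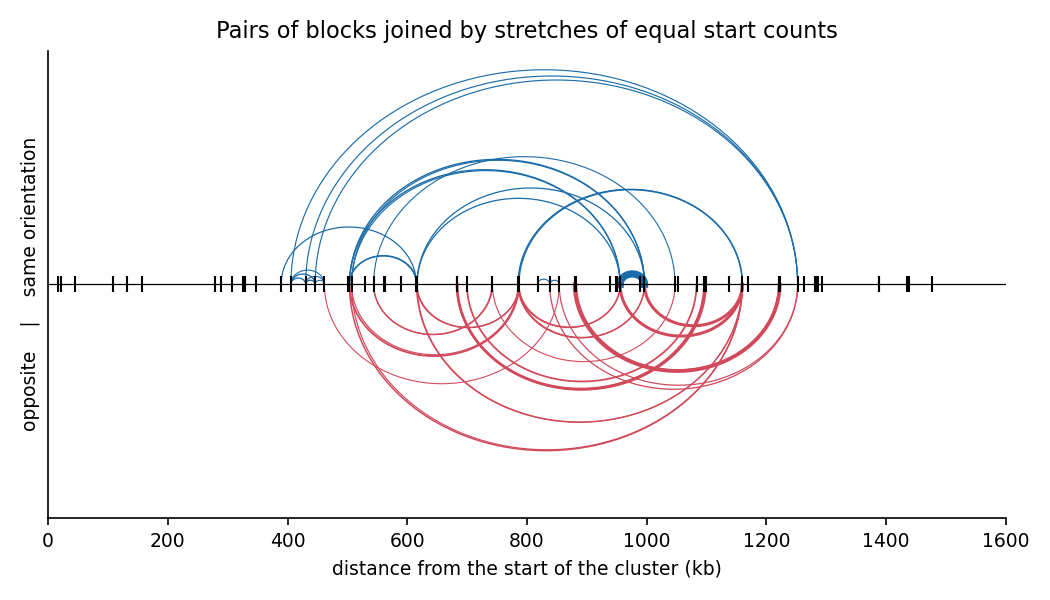
Pairs of blocks joined by rows of equal start counts, against the distance from the start of the cluster (kb); ticks are the 68 blocks, arcs above the line join 24 pairs in the same orientation and arcs below it 25 pairs in the opposite orientation, and a thicker arc stands for more equal positions. No pair reaches the first 300 kb or the last 300 kb of the cluster, and the thickest arc joins blocks 45 and 47.

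Sets were ranked by equal positions summed over their pairs of blocks. The set with the most joined 10 blocks: 14, 20, 21, 27, 28, 35, 36, 45, 47 and 54. Together they had 519, 465 and 584 RPM in litters 1 to 3, which was 20.4% of the cluster's alignments; with linked positions counted once they had 285, 282 and 317. Blocks 45 and 47 were near copies 40.8 kb apart. Of the 2422 bases at which an alignment started in either, 2357 (97.3%) had equal counts in every litter. Their first 500 bases held 3185 alignments each, and bases 3001 to 3500 held 5964 in block 45 and 5714 in block 47. Most of the inequality between the 2 blocks lay in that second part. Block 54, in the opposite orientation, matched them at 387 of 871 usable positions with block 45 and 387 of 868 with block 47.

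**Figure D5:**
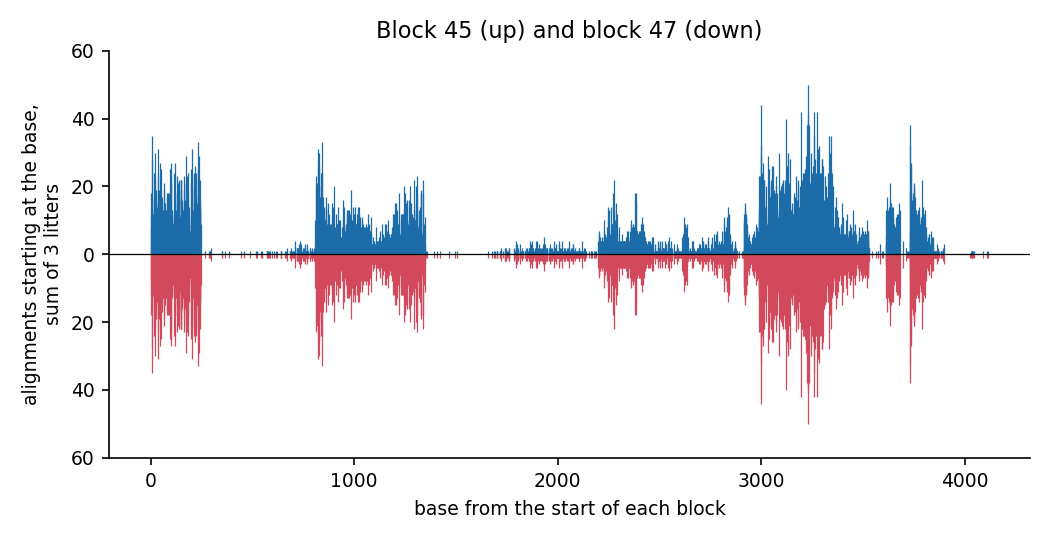
Number of alignments that start at each base of block 45 (upward) and block 47 (downward), summed over the 3 litters, against the base from the start of each block. Up and down mirror each other, with 97.3% of start positions equal, and the starts fall into separate dense stretches with sharp ends.

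The second set was a pair, blocks 40 and 57, in opposite orientation 343 kb apart. They had equal counts at 497 of 560 usable positions (88.8%) and together 120, 140 and 112 RPM in litters 1 to 3. With linked positions counted once they had 82.0, 96.0 and 80.8 RPM. Next to them, blocks 41 (chr4:143582263-143583413) and 56 (chr4:143921011-143922154) formed a pair of their own with 224 of 234 positions equal. This neighbouring pair, named after its values were seen, had another order of litters: block 41 had 9.79, 15.1 and 60.0 RPM and block 56 had 9.79, 15.4 and 60.2, highest in litter 3.

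The third set joined 8 blocks of 2012 to 2031 bases: 15, 16, 17, 18, 37, 38, 39 and 58. It reached 397 equal positions summed over its pairs of blocks, where identical blocks count the same positions more than once. Blocks 31 and 51 ranked next with 320 equal positions. They held 21.6% of the cluster's alignments, against 4.43% for the third set. Blocks 15 (chr4:143105709-143107730), 16 (chr4:143130347-143132368) and 17 (chr4:143146112-143148133) were equal at all 776 start positions, with 290, 1209 and 87 alignments in litters 1 to 3. They cannot be told apart in these data. The third set as a whole had 65.8, 291 and 14.2 RPM, and 56.9, 254 and 13.0 with linked positions counted once. Linked positions carried only 21.6% of the alignments of each of blocks 15, 16 and 17. Their other alignments, though equal in all of these blocks, were still counted in each, so the lower values remove repeats only in part. All 8 blocks had their highest value in litter 2, and this set holds 4 of the 5 most variable blocks.

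Rows of equal counts also led out of the cluster, searched at a summed minimum of 10 alignments. There were 30 rows on 8 chromosomes, touching 16 of the 68 blocks, and their positions carried 10.6% ± 1.12 of the cluster's alignments. Chromosome 12, where the RefSeq table places Oog1 and Pramel51, held 9 rows with 651 equal positions summed over rows. Several rows reuse the same stretch of a block, so the distinct positions of the cluster are fewer. Block 30 (chr4:143382600-143382944) matched chr12:88946915-88947224 and chr12:89196244-89196553, each at 49 of 111 usable positions, and chr12:89416609-89416918 in opposite orientation at 54 of 110. Block 31, the second highest, matched chr12:88947833-88948320 at 130 of 412 positions. Over that row it held 4064, 5860 and 6073 alignments in litters 1 to 3, and the place on chromosome 12 held 4659, 6803 and 7050, more in every litter. Chromosome 14 held a match to the highest block of all: 238 of 338 positions of block 48 were equal to chr14:86720093-86720668 in opposite orientation. The match was made of 2 rows, which span 1238 bases in block 48 and 576 bases on chromosome 14. In these rows 2154, 4140 and 2451 alignments in the cluster stood beside 2130, 4074 and 2395 on chromosome 14.

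Block 7 was linked to other places by 72.7% of its alignments and to no block of the cluster. It matched chr4:46472965-46485322, far from the cluster on the same chromosome, in 4 rows at 284 of 343 usable positions. In block 7 those 4 rows span 997 bases, while at the other place they span 12358 bases. The alignments in the rows numbered 3047, 2461 and 5588 in the cluster and 3088, 2470 and 5649 at the other place in litters 1 to 3. Further matches of block 7 lay at chr4:48630448-48630765 and on chromosome 1 at chr1:148267621-148268278. For most alignments of this block the files do not say from which of these places the RNA came. Block 68 (chr4:144177033-144178878), the last before the longest empty run, matched chr15:99073253-99073555 at 36 of 40 positions.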

How the data were processed

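RNA of 3 litters of 2-cell embryos was sequenced after SPIA amplification and Covaris shearing, per the labels' protocols. Per the submitters' processing notes, Bowtie placed the reads on mm9; how it treated reads with several matches, and its version, were not given in the sources used here. Coverage (signal) was deposited: unscaled numbers of aligned reads over each base, per the file headers. From coverage, the start of every 72-base alignment was recovered on nuclear chromosomes, with no negative starts and no bases left over; strand is unknown. On simulated data 100% of 50000 positions were recovered and 20 of 20 planted copies were found. The planted copies were exact and well covered, so finding them does not measure the search for partly equal or thinly covered copies. A simulated variation of 30% over 3000 windows was returned as 24.5%, so the spread runs low.

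Alignments were assigned by their start. RPM and RPKM are per 1000000 nuclear alignments, which numbered 34014013, 32431630 and 40474940. SDs of log2 RPKM used a pseudocount of 0.1. The named blocks are the 10 highest by mean RPM, the 5 with the largest SD of log2 RPKM at a mean of at least 100 alignments, the 3 sets of copies with the most equal positions and the longest empty run. The members and lists were chosen with earlier results of these data known. The cluster was compared with the rest of chromosome 4 by an exact sign-flip permutation test over litters; other values are descriptions. The labels call the litters replicates, and amplified reads carry no molecular identifiers, so intervals and the limit of 3 counts cover counting error only. Family sequences come from GENCODE M21 transcripts and gene order from RefSeq, both GRCm38; names were matched through Entrez IDs, symbols and synonyms for 24 of 24 genes. Alternatives were the threshold, window size, scaling, distinct starts, gaps, minimum counts and leaving out each litter. Tools were matplotlib 3.10.9 for figures, and scipy 1.17.1, pandas 2.3.3, numpy 2.4.6 under Python 3.11.15.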

Additional observations from a re-analysis of the deposited data

How the results depend on the processing

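The ratio of the cluster to the rest of chromosome 4 stayed above 1 under all alternatives run, between 1.71 without the 10 highest blocks and 5.23 without the 10 highest windows of the rest, and from 4.22 to 4.88 when 1 litter was left out. Scaling by the median of ratios leaves this ratio as it is by construction. Windows of 10 kb gave 24 expressed windows of 160 (15.0%, against 3.58% in the rest), and 1 kb windows gave 61 at 5 RPKM, 109 at 0.5 RPKM and 122 with distinct starts (3.81%, 6.81% and 7.62%, against 0.571%, 1.78% and 2.09% in the rest), and 94 to 113 with 1 litter left out. There were 40 blocks at a minimum of 100 alignments, 100 at a minimum of 5, and 82 to 95 with 1 litter left out. The share of recurring start counts was 0% at a minimum of 50 and 93.8% at a minimum of 10 (23.2% and 89.0% in the rest of chromosome 4). It was 99.2% to 100% when only 2 litters had to reach the minimum and be equal, over 118 to 225 positions, against 88.1% to 92.2% in the rest. The search for rows of equal counts found 0 at 20 alignments per litter, with 5, 10 or 20 positions and with each litter left out. Only 108 positions reached that minimum in all litters, and 12 recurred within the cluster. This 0 therefore does not tell whether copies exist. With summed counts, chosen after seeing the data, it found 72 rows at a minimum of 5, 53 at a minimum of 10, 56 with at least 50% equal and 61 with at least 20 positions. The median variation of windows was 92.5% with a filter of 20 alignments, 122% with a filter of 1, 35.2% with distinct starts, 50.1% with the scaling by the median of ratios, and 37.2% to 50.7% with 1 litter left out. The median SD of log2 RPKM over blocks was 0.55 with a pseudocount of 1 and 0.43 to 0.53 with 1 litter left out. No paired analysis was possible because there is 1 group. Depth limits the copy search: blocks with few alignments have few positions that can be compared.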
